A study of Homo sapiens with 31 samples.

Results

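The 10 glycolysis enzyme genes HK2, GPI, ALDOA, TPI1, GAPDH, PGK1, PGAM1, ENO1, PKM and LDHA were taken from the UMI count table by matching its Ensembl identifiers to these symbols, and all 10 were found among 30667 identifiers. They were measured in NALM-6, an established B-cell precursor ALL cell line, by prime-seq, bulk RNA sequencing of transcript 3′ ends in which a unique molecular identifier (UMI) marks each captured molecule and its PCR copies are counted together. The study's methods name the protocol differently, as SCRB-Seq adjusted for bulk samples. All cells carried a construct expressing a short hairpin RNA, either against XIAP (sh-XIAP) or a control (sh-CTRL), driven by the EF1a or the SFFV promoter. With sh-XIAP, the study called the EF1a-driven construct moderate KD and the SFFV-driven one strong KD. RNA was taken 4, 10 and 13 days post transduction. Day 4 had 3 samples of EF1a/sh-CTRL, 3 of SFFV/sh-CTRL, 2 of EF1a/sh-XIAP and 2 of SFFV/sh-XIAP, day 10 had 3, 2, 2 and 3, and day 13 had 3, 2, 3 and 3, which gives 31 in all. No unmanipulated cells were among the groups, so every comparison was between transduced cells. The sample descriptions have the cells followed in vitro while the general description has them recovered from mouse bone marrow. For the expression experiment the study's methods have cells sorted 10 and 13 days after transduction and name no transplantation. The conflict with the general description was not settled here. Nothing in the labels says that replicates were separate cultures, so p-values measure the spread between these samples, which may be technical. The study's methods exclude samples that were outliers by principal component analysis. The replicate numbers of SFFV/sh-XIAP at day 4 are 1 and 3, so a sample with the number 2 is absent here. Whether the groups of 2 arose through that exclusion is not stated. The spread may be that of an already trimmed set, and p-values may then be too small.

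Glycolysis splits glucose into pyruvate in the cytosol and yields ATP without oxygen, and lactate dehydrogenase turns pyruvate into lactate while restoring the NAD+ that the pathway uses. Leukemia cells, like many proliferating cells, run the pathway at a high rate even with oxygen present. Transcription of several of its genes is under the control of hypoxia-inducible factor and of MYC. All of this is background, and no metabolite, flux or protein was measured.

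Libraries held 312852 to 1153668 UMIs, with a median of 603822. XIAP itself was barely counted. Its level was 3.81 to 18.1 CPM (UMIs of the gene scaled to a common library total) in libraries labelled EF1a/sh-CTRL, 4.50 to 15.4 in SFFV/sh-CTRL, 7.63 to 12.7 in EF1a/sh-XIAP and 6.35 to 14.6 in SFFV/sh-XIAP. XIAP mRNA therefore did not check the labels, since its groups overlapped and its fitted log2 change at days 10 and 13 was −0.26 ± 0.395 (SE) with strong KD (limma-voom, adjusted p = 0.975). All 13 markers of B-cell precursors were present, with a sum of 5170 to 5920 CPM. The sums of 5 T cell, 6 myeloid, 4 erythroid and 5 stromal markers reached at most 3.20, 25.6, 5.29 and 6.91 CPM in any library, and CD3D, CD3E, CD8A, HBA1, HBA2, COL3A1, DCN and LUM had no UMI.

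The enzymes are described in the order of the pathway. HK2 (ENSG00000159399, hexokinase 2, which phosphorylates glucose) lies on the plus strand of chromosome 2 from 74833981 to 74893359 (GENCODE 29 on GRCh38, also for the positions that follow). It was counted at 157 to 231 CPM, with a median of 204. GPI (ENSG00000105220, which makes fructose 6-phosphate from glucose 6-phosphate) lies on chromosome 19 from 34359480 to 34402413 and ranged from 233 to 356 CPM. ALDOA is an aldolase that cleaves the 6-carbon sugar, and it had hardly any UMIs.

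TPI1 (ENSG00000111669, triosephosphate isomerase, which interconverts both products of aldolase) lies on chromosome 12 from 6867119 to 6870948 and was at 512 to 725 CPM. GAPDH (ENSG00000111640), the NAD+-dependent dehydrogenase often used as a reference gene, lies on the same chromosome from 6533927 to 6538374 and was at 2133 to 2739 CPM. PGK1 (ENSG00000102144, the first ATP-forming step) lies on chromosome X from 77910739 to 78129296 and was at 671 to 897 CPM. These enzymes work on 3-carbon intermediates, and each was counted in every library.

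PGAM1 (ENSG00000171314, phosphoglycerate mutase) lies on chromosome 10 from 97426160 to 97433441 and was the least counted of the others, at 95.9 to 209 CPM or 30 to 197 UMIs a library. ENO1 (ENSG00000074800, enolase) lies on the minus strand of chromosome 1 from 8861000 to 8879250 and was at 624.8 to 886 CPM. PKM (ENSG00000067225, pyruvate kinase, the last ATP-forming step) lies on the minus strand of chromosome 15 from 72199029 to 72231822 and was at 373 to 542 CPM. The table has 1 count per gene, so the PKM1 and PKM2 isoforms were not told apart. LDHA (ENSG00000134333, lactate dehydrogenase A) lies on chromosome 11 from 18394388 to 18408425 and was at 989 to 1169 CPM. The CPM values of different genes are not ranked against each other, because counting at the 3′ end, copies and overlapping genes set part of them.

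The spread between replicates of a group was close to counting noise for most enzymes. The pooled coefficient of variation over the 12 groups was 4.10% for LDHA, 4.60% for GAPDH, 4.79% for PGK1, 5.39% for ENO1 and 6.02% for TPI1. It was higher for PKM (9.22%), HK2 (9.23%), GPI (9.82%) and PGAM1 (13.3%). Counting alone would give 4.00% for LDHA and 10.5% for PGAM1, whereas for GAPDH it would give 2.6%, so GAPDH spread 1.77 times as widely as its counts required.

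ALDOA (ENSG00000149925, chromosome 16 from 30064164 to 30070457) had 43 UMIs in all 31 libraries together, 0 to 4 in each and 0 in 11 of them. A count of 0 allows up to 3 UMIs of a library, and this limit covers counting error only. In GENCODE 29 the gene shares its strand and most of its span with ENSG00000285043 (30053090 to 30070420), a protein-coding entry absent from the count table. Whether this overlap lowered the ALDOA count was not tested. An antisense gene inside it, AC093512.1, also had 43 UMIs. At these counts no difference of ALDOA was detectable, and its fitted values enter the counts and medians without being read on their own.

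Several enzymes have near-identical copies or overlapping genes that take UMIs of their own. GAPDH had 52364 UMIs, its 55 annotated pseudogenes 14074 and the antisense gene AC006064.4 (ENSG00000269968), which lies within the end of GAPDH on the other strand, 31060. The antisense gene stood at 54.2% to 64.0% of the GAPDH count in every library. Whether strand was used in counting is not given in the sources used here, and without it reads of both cannot be told apart. PGAM1 had 3176 UMIs against 1267 for PGAM4, an intronless paralog inside the PGK1 locus, and 858 for 9 PGAM1 pseudogenes. TPI1 pseudogenes took 11.2% of that family's UMIs and LDHA pseudogenes 5.29%, while HK2, ENO1 and PKM lost under 1% to theirs. GAPDH and PGAM1 are therefore the least certain of the 9 enzymes that were well counted.

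**Figure D1:**
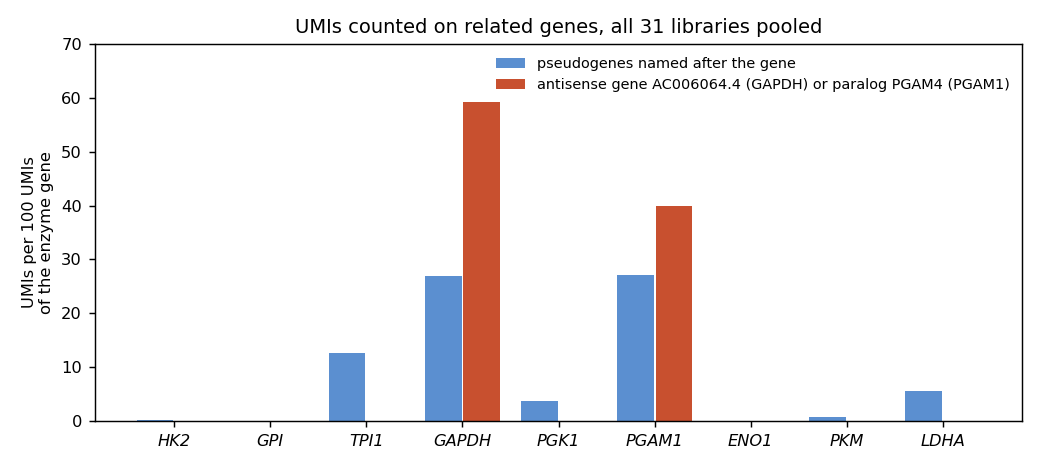
UMIs on related genes for every 100 UMIs of the enzyme gene, pooled over 31 libraries (x axis, enzyme; y axis, UMIs per 100 UMIs). Blue bars stand for pseudogenes named after the gene and red bars for AC006064.4, beside GAPDH, and PGAM4, beside PGAM1; the red bars reach 59.3 and 39.9.

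XIAP KD was compared with its own promoter's control at days 10 and 13, the days the study used, to ask whether loss of XIAP alters the transcriptome of leukemia cells. None of the 10 enzyme mRNAs passed the threshold (adjusted p of at most 0.25 over 17683 genes) with strong or with moderate KD. With strong KD the enzymes had values both above and below the control, with a median log2 change of −0.060 against −0.017 for all genes. The sign of this median was not stable. It ran from −0.057 to 0.053 with 1 sample left out, always above the value with all samples, and from −0.082 to 0.032 under other settings. 3 of 10 had higher values, against 47.4% of all genes, and 3 of 10 had an unadjusted p under 0.05, against 5.58% of all genes. The edgeR quasi-likelihood test called 0 of 10 enzymes, with 48 genes called in all for strong KD and 3 for moderate KD. DESeq2 called 0 genes in both comparisons, so its 0 of 10 adds nothing about the enzymes. Of all genes tested, 0.0792% were called with strong KD and 0.017% with moderate KD.

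HK2 was the enzyme with the lowest value under strong KD. It was counted at 227, 217, 231 and 204 CPM in the 4 SFFV/sh-CTRL samples, and at 170 to 216 CPM with a median of 198 in the 6 SFFV/sh-XIAP samples. The groups overlapped, and the fitted log2 change of −0.20 (95% interval −0.38 to −0.01) had an adjusted p of 0.853 (limma-voom). ENO1 was at 756, 788, 729 and 780 CPM in SFFV/sh-CTRL and at 796 to 869 CPM with a median of 846 in SFFV/sh-XIAP. The ranges did not overlap, but the log2 change of 0.12 (95% interval 0.02 to 0.22) had an adjusted p of 0.767 (limma-voom). With log2 total UMIs as a term the ENO1 change was 0.048 (limma-voom adjusted p = 0.969). The median library of days 10 and 13 held 464457 UMIs in SFFV/sh-CTRL and 708866 in SFFV/sh-XIAP. The part of this depth difference in the ENO1 change was not tested further. GAPDH was at 2449, 2521, 2133 and 2486 CPM against 2196 to 2739 with a median of 2571, a log2 change of 0.070 (95% interval 0.015 to 0.124, adjusted p = 0.763, limma-voom). GAPDH passed when 1 sample of SFFV/sh-XIAP was left out, with 0.10 without replicate 2 of day 10 (adjusted p = 0.18) and 0.12 without replicate 1 of day 13 (adjusted p = 0.238), while with log2 total UMIs as a term it was at 0.033 (adjusted p = 0.964).

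The remaining enzymes were within these bounds. With strong KD the 95% intervals of the 9 well counted enzymes ran from −0.38 (HK2) to 0.22 (ENO1) on the log2 scale, or from 0.769-fold to 1.17-fold. Intervals were narrowest for GAPDH and LDHA, with half-widths of 0.055 and 0.070. For GAPDH the SD was 179 CPM in SFFV/sh-CTRL (mean 2398, n = 4) and 186 CPM in SFFV/sh-XIAP (mean 2536, n = 6). GAPDH spread more widely than its counts required, so its fitted interval and small unadjusted p may understate the spread between samples. This was not tested. LDHA stood at 1.04-fold (0.986 to 1.09) with strong KD. With moderate KD no enzyme had an unadjusted p under 0.05, the median was −0.012 against 0.010 for all genes, and the intervals ran from −0.29 (PGAM1) to 0.28 (GPI). These ends are the outermost over the enzymes and not limits of detection, because passing depended on the adjusted p over all genes. A missed threshold does not show that the levels were equal.

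**Figure D2:**
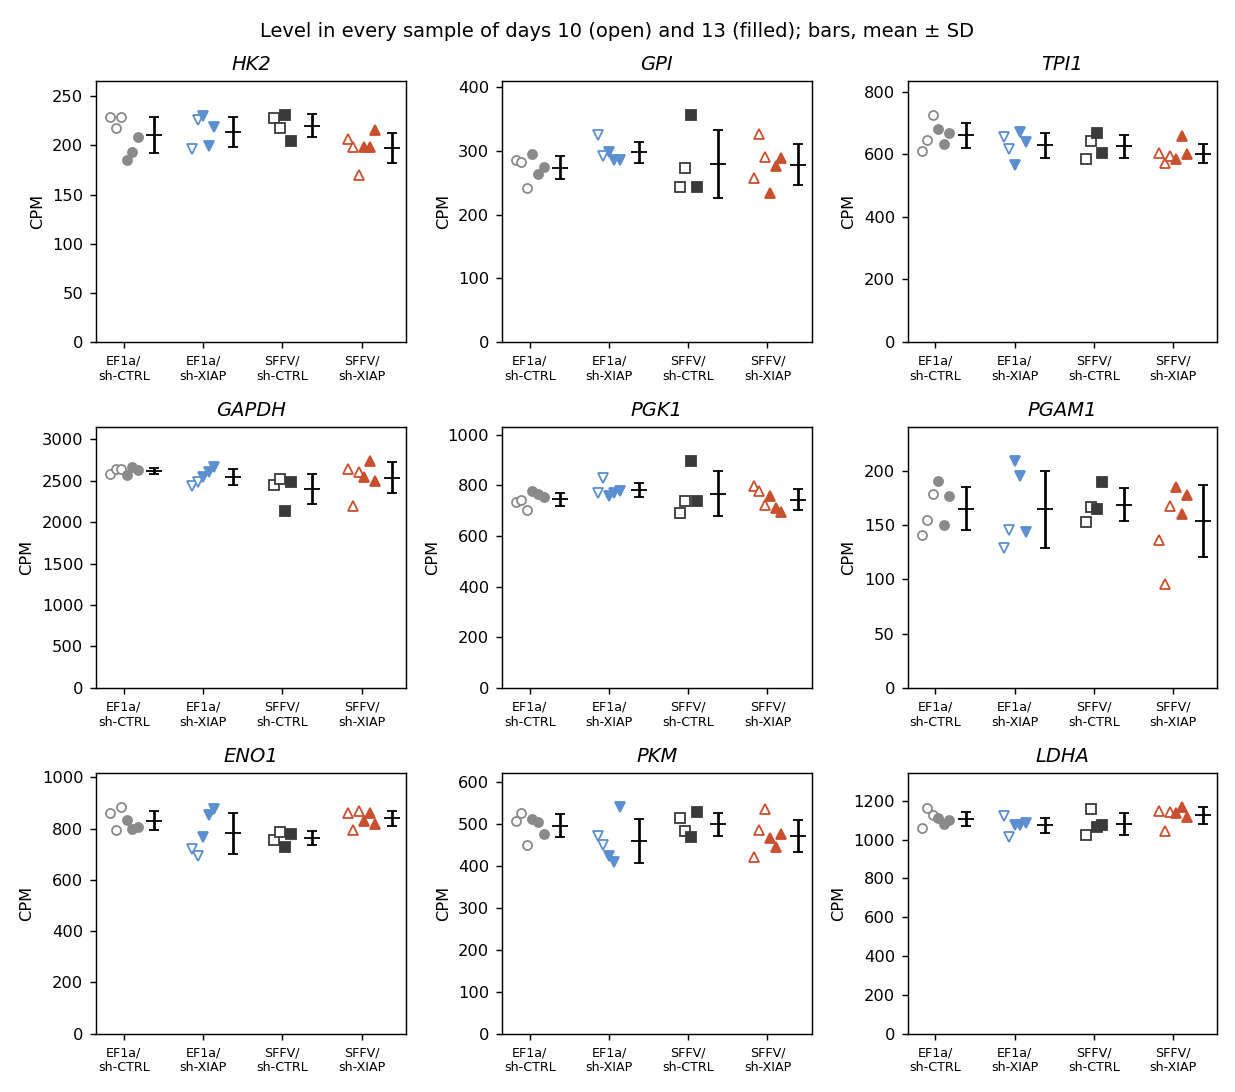
Level of 9 enzyme mRNAs in every sample of days 10 (open symbols) and 13 (filled symbols), by construct (x axis) in CPM (y axis), with bars for mean ± SD (n = 6 for EF1a/sh-CTRL, 4 for SFFV/sh-CTRL, 5 for EF1a/sh-XIAP and 6 for SFFV/sh-XIAP). ENO1 in SFFV/sh-XIAP (796 to 869) lies above SFFV/sh-CTRL (729 to 788), and GAPDH in EF1a/sh-CTRL (2574 to 2670) lies above SFFV/sh-CTRL (2133 to 2521).

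The difference between strong and moderate KD was tested directly, to ask whether the promoter that drives sh-XIAP mattered. 0 of 10 enzymes passed (0.00566% of all genes did). By edgeR 0 of 10 passed, with 23 genes called in all, and DESeq2 called 0 genes in all. 1 enzyme had an unadjusted p under 0.05. That enzyme was ENO1, with a difference of 0.147 on the log2 scale (95% interval 0.01 to 0.28, limma-voom adjusted p = 0.964). With 1 sample left out the difference ran from 0.155 to 0.26, always above the value with all samples. It was 0.26 without replicate 3 of EF1a/sh-XIAP at day 13 (limma-voom adjusted p = 0.196). The control constructs differed for GAPDH before correction: SFFV/sh-CTRL was lower than EF1a/sh-CTRL by a log2 change of −0.093 ± 0.0283 (SE), with an adjusted p of 0.922 (limma-voom) and 0.00566% of all genes called. GAPDH was at 2574 to 2670 CPM with a median of 2630 in the 6 EF1a/sh-CTRL samples, above all 4 SFFV/sh-CTRL samples. In a fit of these 2 constructs alone its change was −0.12 (limma-voom adjusted p = 0.00406). It was −0.058 with the antisense counts added (adjusted p = 0.922) and −0.14 without replicate 2 of SFFV/sh-CTRL at day 10 (adjusted p = 0.472). The lowest of those, at 2133 CPM, was replicate 1 of day 13, which also had the highest PGK1 (897 CPM) and GPI (356 CPM) of all libraries.

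At day 4, 0 of 10 enzymes passed with strong KD, with moderate KD or between the control promoters (0.0109%, 0.0491% and 0.0164% of 18336 genes were called). By edgeR 0 of 10 passed, with 8, 0 and 0 genes called in all, and DESeq2 called 0 genes in each. The number of enzymes with an unadjusted p under 0.05 was 0, 1 and 0. The exception was GAPDH with moderate KD, 2531 and 2597 CPM in EF1a/sh-XIAP against 2538, 2397 and 2564 in EF1a/sh-CTRL, with a log2 change of 0.045 and an adjusted p of 0.976 (limma-voom). These values overlapped, and with the antisense counts added the change was 0.060 (adjusted p = 0.0395), whereas with thinned counts it was −0.024 (adjusted p = 0.973). The strong KD effect was also compared between day 13 and day 4, and 0 of 10 enzymes passed (0% of all genes were called). By edgeR 0 of 10 passed, with 5 genes called in all, and DESeq2 called 0 genes in all. GAPDH had the smallest p (log2 difference 0.12, limma-voom adjusted p = 0.861), the only unadjusted p under 0.05. Without replicate 1 of SFFV/sh-CTRL at day 13 the GAPDH difference was 0.021, and without replicate 2 it was 0.23.

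By limma-voom 3 enzymes were called higher at day 13 than at day 4. The edgeR test called 2 enzymes (76 genes in all), DESeq2 called 3 (75 genes in all) and limma-trend called 2. From day 4 to day 13 all 10, ALDOA included, had a fitted change above 0 across the constructs, 3 of 10 passed the threshold as higher (TPI1, PGAM1 and LDHA) and none as lower, and 6 of 10 had an unadjusted p under 0.05. Of all genes, 50.1% had a fitted change above 0 in this comparison, 0.311% were called higher and 6.46% had an unadjusted p under 0.05. Among 1927 genes with a mean of at least 100 CPM, where counts are large, 46.8% had a change above 0 and 1.82% were called higher. The median log2 change of the enzymes was 0.085, against 0.0003 for all genes. In bulk RNA, fewer cells of a type and less RNA per cell cannot be told apart, and CPM are shares of each library.

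TPI1 was at 512 to 586 CPM at day 4 with a median of 567.996 (n = 10), at 572 to 725 with a median of 613 at day 10 (n = 10), and at 566 to 681 with a median of 638 at day 13 (n = 11). At day 13, 9 of 11 samples lay above every day 4 sample. TPI1 was 1.12-fold higher (95% interval 1.07 to 1.16, log2 change 0.16 ± 0.0307 SE, limma-voom adjusted p = 0.00641). Within single constructs the log2 change ran from 0.12 in EF1a/sh-XIAP to 0.22 in EF1a/sh-CTRL, so TPI1 had a higher value in 4 of 4 constructs.

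PGAM1 was at 122 to 161 CPM at day 4 with a median of 136, at 95.9 to 179 with a median of 150 at day 10, and at 144 to 209 with a median of 178 at day 13. 8 of 11 day 13 samples lay above every day 4 sample, and 11 of 11 above the day 4 median. PGAM1 was 1.25-fold higher (95% interval 1.13 to 1.38, log2 change 0.32 ± 0.073 SE, limma-voom adjusted p = 0.0328), the largest change among the enzymes in this comparison. It had a higher value in 4 of 4 constructs, from 0.083 in EF1a/sh-XIAP to 0.44 in SFFV/sh-XIAP. The paralog PGAM4 had a log2 change of 0.25 and did not pass (limma-voom adjusted p = 0.589). With the PGAM4 counts added to those of PGAM1, the change was 0.30 (adjusted p = 0.0194).

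LDHA was at 989 to 1084 CPM at day 4 with a median of 1037, at 1013 to 1161 with a median of 1123 at day 10, and at 1065 to 1169 with a median of 1083 at day 13. 5 of 11 day 13 samples lay above every day 4 sample, and all 11 above the day 4 median. LDHA was 1.06-fold higher (95% interval 1.03 to 1.09, log2 change 0.084 ± 0.0207 SE, limma-voom adjusted p = 0.0817). The log2 change was 0.020 in EF1a/sh-XIAP and 0.17 in SFFV/sh-XIAP, where the 3 day 13 samples (1134, 1169 and 1115 CPM) were the 3 highest of day 13. LDHA did not pass with edgeR (adjusted p = 0.792) or limma-trend (0.908), in the sh-CTRL constructs alone (0.778), or without replicate 3 of SFFV/sh-XIAP at day 4 (0.254).

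**Figure D3:**
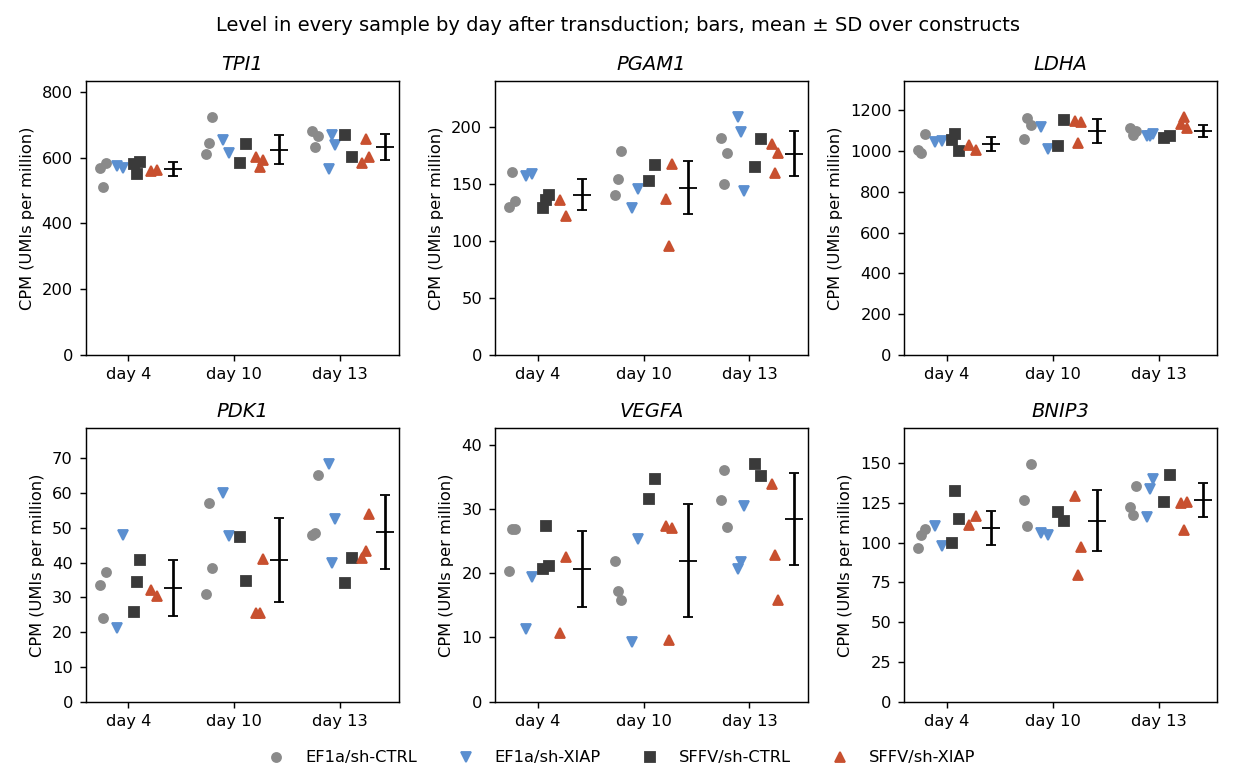
CPM of TPI1, PGAM1, LDHA and of PDK1, VEGFA and BNIP3 in every sample (y axis, from 0) by day after transduction (x axis), with symbols for the construct and bars for mean ± SD over all samples of a day (n = 10, 10 and 11). TPI1 moves from a median of 567.996 at day 4 to 638 at day 13, with 9 of 11 samples above all day 4 samples.

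The other enzymes did not pass from day 4 to day 13. HK2 had a log2 change of 0.14, ENO1 of 0.086 and GAPDH of 0.030, with unadjusted p of 0.0271, 0.0048 and 0.0282 and adjusted p of 0.704, 0.463 and 0.704 (limma-voom). The values of PKM, PGK1 and GPI were 0.076, 0.044 and 0.041, all with intervals that held 0. GAPDHP40, the most counted GAPDH pseudogene (4704 UMIs) and named after its values were seen, was higher by a log2 change of 0.25 (limma-voom adjusted p = 0.119), while AC006064.4 had a value of −0.021 (adjusted p = 0.915). Differences between these genes were not tested.

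**Figure D4:**
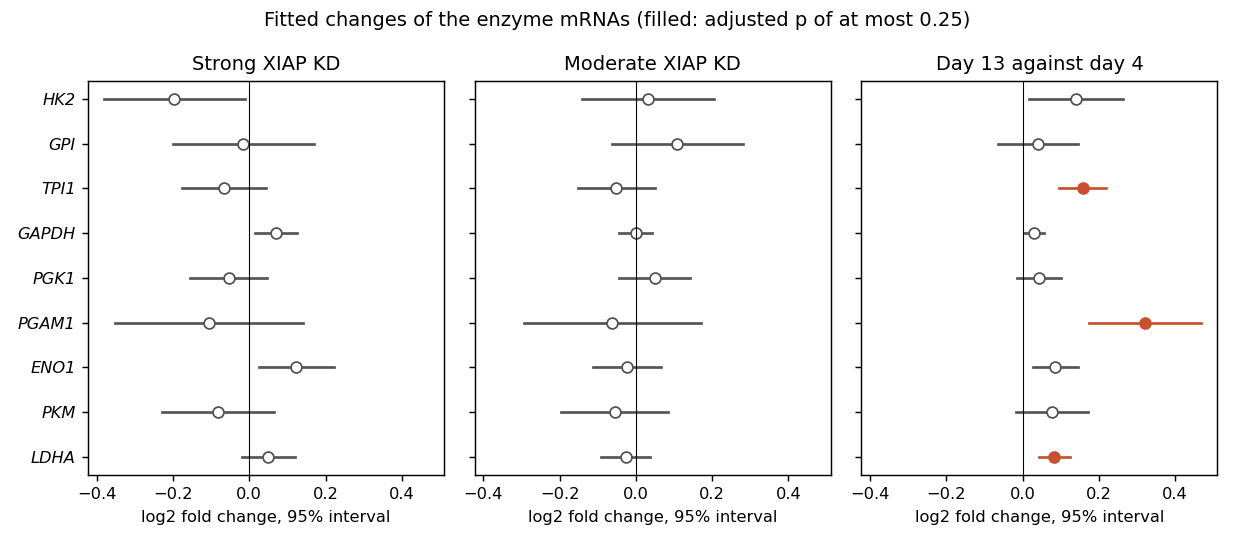
Fitted log2 fold change with 95% interval (x axis) of 9 enzyme mRNAs (y axis, in pathway order) with strong KD and moderate KD at days 10 and 13 and from day 4 to day 13. Filled red points passed an adjusted p of 0.25, which only TPI1 (0.16), PGAM1 (0.32) and LDHA (0.084) did, all in the comparison of days.

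From day 4 to day 10, 9 of 10 enzymes had values above 0, as did 49.8% of all genes. The median was 0.077 against −0.0008 for all genes. 0 of 10 passed by limma-voom (0.26% of all genes did), and 2 had an unadjusted p under 0.05. Of the enzymes, edgeR called 0 (34 genes in all) and DESeq2 called 2 (42 genes in all). TPI1 (log2 change 0.11, adjusted p = 0.409) and LDHA (0.065, adjusted p = 0.558) had the smallest p (limma-voom). From day 10 to day 13, 0 of 10 passed (0.0452% of all genes did). By edgeR 0 of 10 passed, with 4 genes called in all, and DESeq2 called 0 genes in all. By limma-voom 2 enzymes had an unadjusted p under 0.05, PGAM1 with 0.24 (adjusted p = 0.908) and GAPDH with 0.030 (adjusted p = 0.982). The GAPDH value was 0.0087 without replicate 2 of SFFV/sh-XIAP at day 13, 0.014 to 0.019 without any 1 of 5 other libraries, −0.0041 with thinned counts and −0.0300 without a filter. The comparisons of day 10 and of day 13 with day 4 share the day 4 samples. PGAM1 had a log2 change of 0.093 from day 4 to day 10. TPI1 passed in the comparison of day 10 with day 4 when SFFV/sh-CTRL day 10 replicate 1 (0.13, adjusted p = 0.204), EF1a/sh-XIAP day 13 replicate 1 (0.12, adjusted p = 0.189) or SFFV/sh-XIAP day 13 replicate 2 (0.13, adjusted p = 0.185) was left out of the limma-voom fit.

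Libraries differed between the days in depth and in mitochondrial RNA. Day 4 libraries held 372930 to 1153668 UMIs (median 751952) and day 13 libraries 351081 to 1063950 (median 603822). Mitochondrial transcripts took 1.83% to 2.11% of UMIs at day 4 (median 1.94%) and 1.77% to 1.93% at day 13 (median 1.81%), and their part in the change of the enzymes was not tested. The summed level of the 10 enzymes was 6301 to 6849 CPM at day 4 (median 6665) and 6722 to 7240 at day 13 (median 7059). With log2 total UMIs as a term, the changes of TPI1, PGAM1 and LDHA were 0.15, 0.31 and 0.091 (limma-voom adjusted p = 0.013, 0.0538 and 0.0355). When every library was thinned at random to 312852 UMIs, 10 such draws gave values of 0.14 to 0.20 for TPI1, 0.23 to 0.38 for PGAM1 and 0.064 to 0.13 for LDHA, and passed in 3, 1 and 3 of the draws. Time after transduction and the day on which a sample was taken cannot be told apart.

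**Figure D5:**
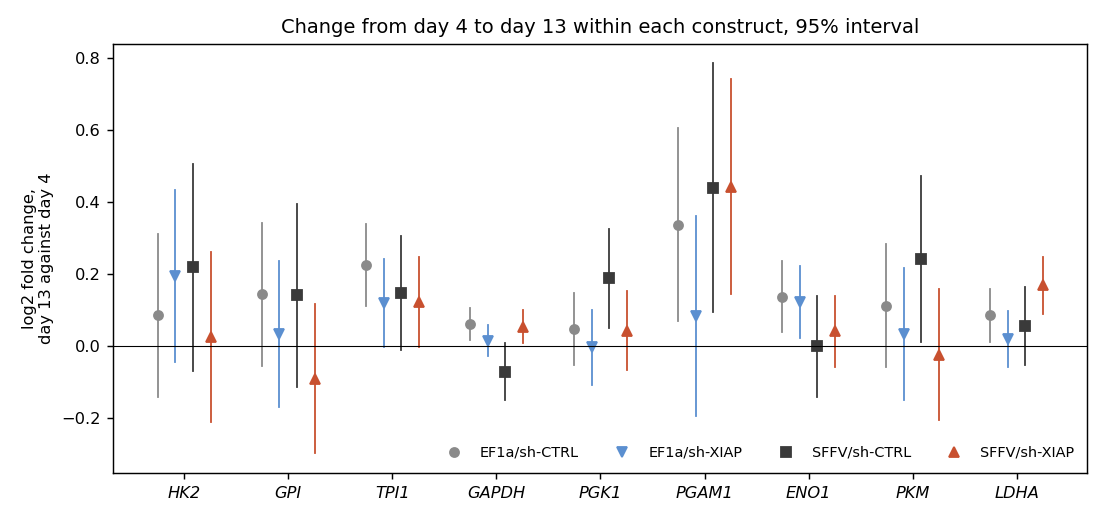
Log2 fold change from day 4 to day 13 (y axis) of 9 enzyme mRNAs (x axis) within each construct, with 95% intervals from one fit over all 31 samples. HK2, TPI1, PGAM1 and LDHA have values above 0 in 4 of 4 constructs, while GPI falls to −0.09 in SFFV/sh-XIAP and GAPDH to −0.07 in SFFV/sh-CTRL.

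Other genes of the pathway were examined by lists chosen for their role. Of 19 other isoenzymes, among them HK1, the phosphofructokinases and LDHB, 13 were tested and none passed from day 4 to day 13, with a median log2 change of 0.089 and 3 at an unadjusted p under 0.05. These were ALDOC, a second aldolase (0.30, adjusted p = 0.532), and the phosphofructokinases PFKP (0.18, adjusted p = 0.57) and PFKM (0.15, adjusted p = 0.699), by limma-voom. LDHB, which favours the reverse reaction of LDHA, had a value of 0.0007 (95% interval −0.071 to 0.072). Of 7 genes for glucose and lactate transport 6 were tested and none passed, and SLC16A1, the lactate carrier MCT1, had a value of −0.18 (limma-voom adjusted p = 0.428).

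Of 14 regulators 11 were tested and 1 passed as higher, PDK1. Pyruvate dehydrogenase kinase 1 phosphorylates pyruvate dehydrogenase and so keeps pyruvate out of mitochondria. PDK1 was at 21.2 to 48.0 CPM at day 4 with a median of 32.8, and at 34.2 to 68.4 with a median of 48.0 at day 13, where 6 of 11 samples lay above every day 4 sample. Its log2 change was 0.54 ± 0.137 (SE, limma-voom adjusted p = 0.089), with values above 0 in 4 of 4 constructs. PDK1 did not pass with thinned counts (adjusted p = 0.721), in the sh-CTRL constructs alone (0.564) or without replicate 1 of EF1a/sh-XIAP at day 4 (log2 change 0.43, adjusted p = 0.372). HIF1A and MYC did not pass, with values of −0.14 (adjusted p = 0.852) and 0.079 (adjusted p = 0.783).

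Neither the 7 genes of pyruvate entry nor the 7 of the pentose phosphate branch had a member that passed, with medians of 0.002 and −0.027. Of 14 hypoxia targets outside glycolysis 11 were tested and 2 passed as higher, with a median of 0.14. VEGFA, an angiogenic growth factor, was at 10.7 to 27.3 CPM at day 4 (median 20.9) and at 15.9 to 37.0 at day 13 (median 30.5), a log2 change of 0.59 (limma-voom adjusted p = 0.214). BNIP3, a mitophagy receptor, was at 96.6 to 133 CPM at day 4 (median 109) and at 108 to 142 at day 13 (median 125), a log2 change of 0.26 (limma-voom adjusted p = 0.214). VEGFA rests on 3 to 36 UMIs a library. Both lost their call easily: VEGFA passed under 8 of 14 other settings and in 19 of 31 fits with 1 sample left out (adjusted p up to 0.65 and 0.431), and BNIP3 under 9 of 14 and in 18 of 31 (up to 0.723 and 0.557). No gene of any of the 6 lists passed in any other comparison, in either direction.

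The start sites of all 10 enzymes were searched for ACGTG, the core of the hypoxia-inducible factor motif. On the other strand it reads CACGT. The E-box recognised by MYC (written out, CACGTG) contains it and cannot be told apart by this search. The 250 bases before each RefSeq start site (GRCh38.p14) were searched on both strands, with overlapping matches merged into 1 stretch. All 10 enzymes had a window, 15 in all, and 10 of the 15 held the motif, in 7 of the 10 genes. Of all 35116 such windows, 18.5% held it and 0.350% held 3 or more stretches. The first LDHA window (chr11:18394313-18394562) held 3, and both HK2 windows, with starts at 74834127 and 74835170, held 2. The second LDHA window (chr11:18396101-18396350), the TPI1 window at the upstream start, the PGAM1 window and the windows of PKM and ENO1 held none, which says only that these letters are not there. A match is a description of the letters and not a bound site.

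For LDHA and TPI1, which passed with time, and for PGK1, which did not, the part of a window that overlaps no GENCODE 29 exon and holds the motif is printed here to show the letters matched. The PGAM1 window lies wholly in an annotated exon. The lines are LDHA at chr11:18394313-18394387, TPI1 at chr12:6867855-6868099 before its downstream start and PGK1 at chrX:78103998-78104173, all on the plus strand. Sequences are from RefSeq on GRCh38.p14, and capitals mark the motif.
LDHA: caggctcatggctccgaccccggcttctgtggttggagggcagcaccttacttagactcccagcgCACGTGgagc
TPI1: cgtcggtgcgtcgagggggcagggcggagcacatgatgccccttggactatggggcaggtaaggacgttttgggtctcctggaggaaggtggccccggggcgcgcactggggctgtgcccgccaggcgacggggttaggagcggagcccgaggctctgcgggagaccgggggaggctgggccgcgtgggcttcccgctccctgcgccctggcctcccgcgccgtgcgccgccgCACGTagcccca
PGK1: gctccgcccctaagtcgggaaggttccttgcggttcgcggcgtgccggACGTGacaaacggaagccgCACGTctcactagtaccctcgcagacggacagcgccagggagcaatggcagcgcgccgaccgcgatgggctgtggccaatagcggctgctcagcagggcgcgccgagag
The LDHA and TPI1 parts hold 1 stretch each, in LDHA as the E-box form, and the PGK1 part holds both strands of the core.

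Within groups the enzymes did not move as 1 block. Over 31 samples, after group means were removed, the 36 pairs of the 9 well counted enzymes had a median Pearson r of 0.067, with 19 above 0, from −0.62 for GPI and GAPDH to 0.57 for TPI1 and ENO1. GAPDH correlated with ENO1 at 0.54 and with PGK1 at −0.34. These samples share library depth and the constraint that CPM add up to a fixed sum, and the values are given as a description. Outside the enzymes, the 5 genes of 4106 with a mean of at least 50 CPM whose log2 CPM was most like the mean standardized enzyme level over 31 samples were RPL3P4 (r = 0.73), IGLC5 (0.73), IGLC6 (0.70), RPL3P9 (0.68) and ENSG00000234080 (0.65). With day means removed these values were 0.63, 0.44, 0.28, 0.55 and 0.43.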

How the data were processed

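UMI counts per Ensembl gene for 31 samples, not normalized, were deposited as 1 table. Per the submitters' processing notes, STAR 2.6.0a and the builds GRCh38 (hg38) and GRCm38 (mm10) were used, and for annotation and counting nothing is stated in the sources read. Symbols came from a gene name table (30548 of 30667 identifiers matched) and positions from GENCODE 29 (29928 matched), which may not be the annotation behind the counts. Samples were grouped by construct and day as labelled.

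Genes with over 1 CPM in at least 1/3 of the samples of a fit entered limma-voom after TMM scaling, in a model of construct plus day (construct alone at day 4, construct by day for the change in KD effect), two-sided, with Benjamini-Hochberg adjustment over all genes tested and called where the adjusted p did not exceed 0.25. The counts of days 10 and 13, of day 4 and of all days were fitted apart. The study's methods name edgeR for preprocessing and limma for testing, with this filter and threshold; voom, TMM and the model terms were chosen here, and edgeR's quasi-likelihood test was an alternative. Software comprised limma 3.58.1, edgeR 4.0.16 and DESeq2 1.42.0 under R 4.3.3. The fits were tested on simulated data with planted changes much larger than those reported here. That test does not show how often changes of the reported size are found. CPM in the text are scaled to the total UMIs of the library without TMM, and ± marks SE or SD as stated. Depth limits precision, and intervals cover 95%. Replicates of 26 same-group pairs differed by more than sampling noise (chi-square per gene 1.07 to 2.42), so none was merged.

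The members and lists were chosen with earlier results of these data known. All 10 members are reported, those called or with the 2 smallest p in more detail, with called genes of the 6 lists and the 5 genes most like the members. Alternatives were other tests (edgeR, DESeq2, limma-trend), scalings, filters, a replicate block, depth, copies, thresholds and left-out samples. Added after the data were seen were antisense and PGAM4 counts joined to GAPDH and PGAM1, 9 further thinnings and the day change in each construct.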

Additional observations from a re-analysis of the deposited data

Results flagged for a closer look

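In 60 sets of samples (each enzyme in each construct at days 10 and 13, and over the constructs at day 4 and at day 10), the gap between the highest or lowest sample and the next was compared with Dixon's 95% limits, and 4 values, from 3 libraries, stood apart. Chance gives about 1 in 20 such sets.

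EF1a/sh-CTRL replicate 2 at day 4 was the lowest of the 10 day 4 samples for TPI1 (512.16 CPM, others 551 to 586) and for ENO1 (624.782 CPM, others 725 to 825). TPI1 at 658.19 CPM in SFFV/sh-XIAP replicate 2 of day 13 lay above the other 5 samples of that construct at days 10 and 13 (572 to 603). GAPDH at 2195.93 CPM in SFFV/sh-XIAP replicate 2 of day 10, the smallest library with 312852 UMIs, lay below the other 9 samples of that day (2431 to 2645), and that library also had the lowest PGAM1 count (30 UMIs). With each of these libraries left out in turn, the change of TPI1 from day 4 to day 13 stayed between 0.14 and 0.17 on the log2 scale.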

How the results depend on the processing

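From day 4 to day 13, 3 enzymes passed among 90 genes called in all. With any 1 sample left out, 2 to 3 enzymes passed among 51 to 109 genes called. With DESeq2 size factors 5 enzymes passed, and the other settings called 31 to 129 genes in all. The planned thinning of counts to the smallest total gave 0 enzymes among 32 genes called (0 to 2 enzymes over 10 such draws). TPI1 and PGAM1 passed under 13 of 14 other settings and LDHA under 10. From day 4 to day 10, where none passed, DESeq2, DESeq2 size factors and filterByExpr gave 2, no TMM and added pseudogene counts gave 1, no filter gave 6 (with 8868 genes called in all), and left-out samples 0 to 1 (1 without SFFV/sh-CTRL day 10 replicate 1, EF1a/sh-XIAP day 13 replicate 1 or SFFV/sh-XIAP day 13 replicate 2). For strong KD left-out samples gave 0 to 1 (1 without SFFV/sh-XIAP day 10 replicate 2 or day 13 replicate 1), and for strong minus moderate KD 0 to 1 (1 without EF1a/sh-XIAP day 13 replicate 3). An enzyme count of 1 was also reached by the promoters with only those 2 constructs, by day 13 against day 10 without a filter, and by moderate KD at day 4 without a filter or with antisense counts added. Genes called in all from day 4 to day 10 numbered 7 to 8868 under other settings and 25 to 50 with left-out samples. Left-out samples gave 2 to 45 genes for strong KD and 0 to 27 for strong minus moderate KD. Other settings gave 0 to 32 genes for the promoters at days 10 and 13, 0 to 68 for day 13 against day 10 and 0 to 29 for moderate KD at day 4. GAPDH from day 10 to day 13 reversed to −0.0300 without a filter (adjusted p = 4.26e-05, limma-voom), and the cause was not tested. Under the other comparisons and settings the count of enzymes stayed at 0.

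Genes called in all from day 4 to day 13 numbered 90, between 31 and 129 under other settings, and with strong KD 14, between 0 and 113. The fitted strong KD change of ENO1 was 0.12 with all samples and 0.13 to 0.17 with 1 left out, always above the value with all samples. It was 0.048 (log2 total UMIs as a term) to 0.17 (no filter) under other settings. A replicate block, with the replicate number as a term, left 3 enzymes from day 4 to day 13 and 0 with strong KD, and changed none of these counts. Same-numbered samples did not deviate together (mean correlation −0.00054 over 149 pairs, 0 of them over 0.1), so the numbers were not used as pairs. Low counts limit PGAM1 and ALDOA most.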
